A study of Homo sapiens with 4 samples.

Results

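Aminoacyl-tRNA synthetases are the enzymes that load each amino acid onto its tRNA. The genes described here were 38 of the 53777 Ensembl genes in the table, chosen by symbol from a list of synthetases: 20 that serve the cytosol, 16 that serve mitochondria, and AIMP1 and AIMP2. The symbols are the older ones of the table, so that AARS is today's AARS1. AIMP2 ends in 2 but is no mitochondrial enzyme: AIMP1 and AIMP2 are scaffold proteins of the cytosolic multisynthetase complex, and they were counted in neither set.

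RNA was sequenced from NUGC3, an established human cell line that the labels give as a stomach cancer line. The 4 libraries came from cells with a MYC knockdown (genotype MYC_KD, replicates 1 and 2) and from wild-type cells (genotype wild_type, replicates 1 and 2). MYC is a transcription factor that drives cell growth and protein synthesis. The sources used here do not give how it was knocked down, when the cells were taken or whether the wild-type cells carried a control construct. The comparison asks how the RNA of the synthetases differs between MYC knockdown and wild-type cells, and whether the cytosolic and mitochondrial sets differ alike.

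Each synthetase recognises 1 amino acid and its tRNAs. Most amino acids have separate nuclear genes for the cytosolic and the mitochondrial enzyme, and the mitochondrial proteins are imported after synthesis. GARS and KARS are exceptions, since each gene makes both forms. In human cells several cytosolic enzymes sit with AIMP1, AIMP2 and EEF1E1 in the multisynthetase complex. They are EPRS, which charges glutamate and proline, IARS, LARS, MARS, QARS, RARS, KARS and DARS. The others are called free here, which means only that they are outside that complex. Many cytosolic synthetase genes are known targets of ATF4, the transcription factor of the amino acid starvation response, and WARS is known as an interferon-induced gene.

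Values are FPKM as the authors deposited them, that is, fragments scaled to transcript length and to the library's total. They are relative within a library, so that fewer cells of a type and less RNA per cell cannot be told apart, and the depth is unknown. The libraries' FPKM over the Ensembl rows summed to 644036 and 615172 in the MYC knockdown and to 676445 and 668847 in wild type. MYC itself stood at 65.0 and 75.8 FPKM in the MYC knockdown libraries, against 82.9 and 82.0 FPKM in the wild-type libraries, a log2 change of −0.23 with a standard error of 0.10 (limma adjusted p = 0.237). Of 10 markers of stomach epithelium, 9 passed the filter on low values, and TFF1 was under 1 FPKM in all 4 libraries. Of the 9, the groups did not overlap for 3 that were lower in the MYC knockdown and 5 that were higher, and 2 were called higher at an adjusted p under 0.10 by limma. EPCAM, an epithelial adhesion protein, stood at 181 and 197 FPKM in the MYC knockdown against 209.8 and 209 FPKM in wild type, and KRT19, an epithelial keratin, at 1047 and 1153 FPKM against 655 and 661 FPKM. Of 8 fibroblast and 8 blood cell markers, 7 and 7 were under 1 FPKM in every library, with PTPRC and HBB at 0. The exceptions were COL1A1 and CD68. COL1A1 stood at 8.12 and 2.98 FPKM in the MYC knockdown against 6.57 and 5.75 FPKM in wild type. CD68 stood at 21.5 and 22.3 FPKM in the MYC knockdown against 12.4 and 17.1 FPKM in wild type. The 20 interferon-stimulated genes summed to 1581 and 217 FPKM in the MYC knockdown libraries, against 199 and 193 FPKM in wild type, so MYC knockdown replicate 1 stood apart. The labels do not state that replicates came from separate cultures, and the spread behind each p-value may therefore be technical.

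Cytosolic synthetases were lower in MYC knockdown cells, and mitochondrial synthetases lay close to their wild-type levels as a set. The median log2 change over the 20 cytosolic genes was −0.36, against −0.04 over the 16 mitochondrial genes and 0.04 over the 12953 genes tested (log2(FPKM + 1), MYC knockdown minus wild type). With equal column sums the mitochondrial median was 0.05, on the other side of 0, and the cytosolic median was −0.27. The median of all genes tested rose too in that setting, to 0.12, and the mitochondrial median stayed below it. All 38 genes passed the filter of at least 1 FPKM in at least 2 libraries, and the lowest was PARS2 at 2.48 and 1.96 FPKM in the MYC knockdown against 2.20 and 2.15 FPKM in wild type. The groups did not overlap, with the MYC knockdown lower, for 16 of the 20 cytosolic genes and for 6 of the 16 mitochondrial genes, against 25.2% of all genes tested. They did not overlap, with the MYC knockdown higher, for 0 cytosolic genes and 1 mitochondrial gene, against 33.4% of all genes tested. Without MYC knockdown replicate 1, the library with high interferon-stimulated genes, the mitochondrial median was −0.0997 and the cytosolic median −0.41. The median of all genes tested was then 0.0085. In that setting 11 mitochondrial and 19 cytosolic genes were lower without overlap. With a lone library in a group, non-overlap is easier for any gene to reach, and the share of all genes was not computed.

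Gene by gene, limma called 0 of the 38 members at a p of 0.05 adjusted by Benjamini-Hochberg over all genes tested, as it called 0.0% of all genes. At an unadjusted p under 0.05, 15 cytosolic genes and 1 mitochondrial gene were lower (11.5% of all genes tested) and 0 members were higher (14.4% of all genes tested). At an adjusted p under 0.10, 7 members were called, all cytosolic and lower, against 4.91% of all genes called lower and 5.5% called higher. The calls changed with the library left out, for members and for all genes alike, as described further below. Without a filter on low values, 0 members and 0 genes were called at 0.10.

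**Figure D1:**
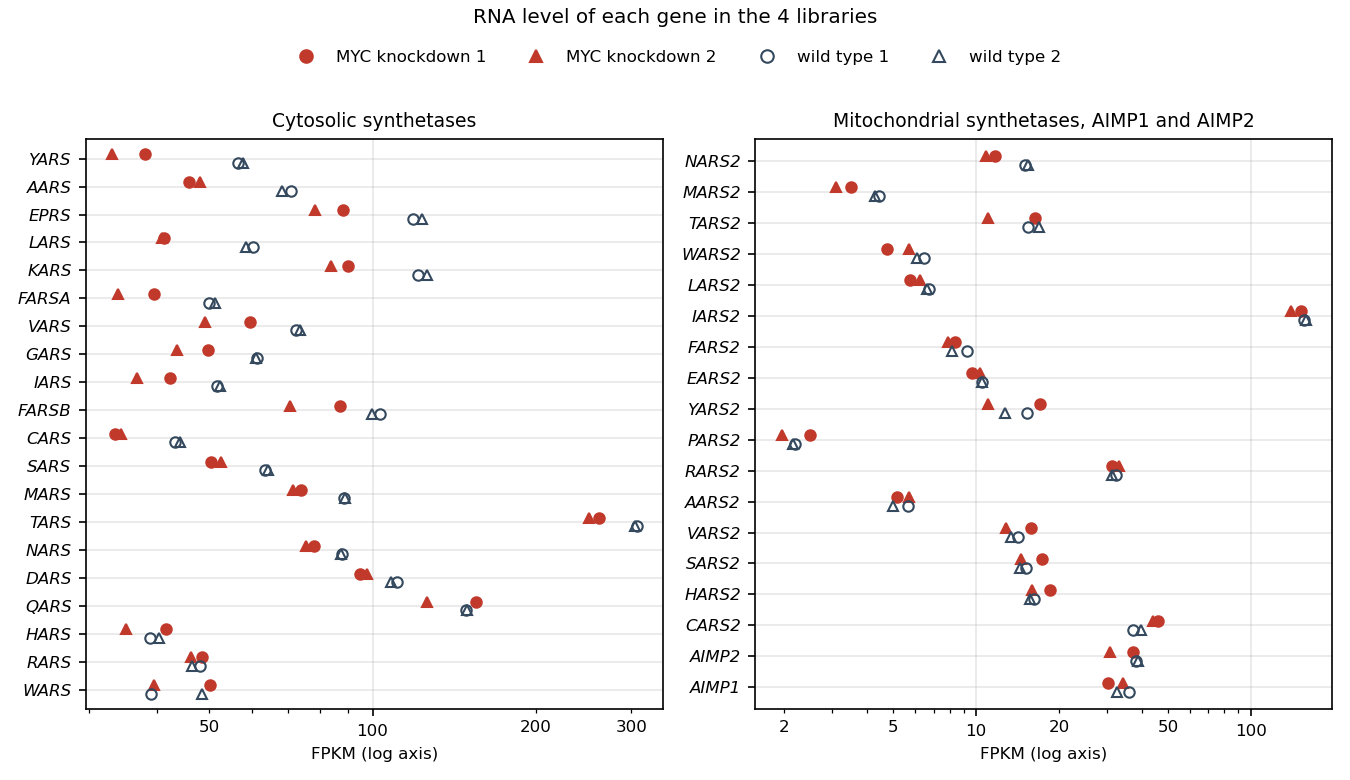
FPKM (log axis) of each gene in the 4 libraries, with filled red symbols for MYC knockdown and open blue symbols for wild type, circles for replicate 1 and triangles for replicate 2; genes run from the lowest to the highest log2 change in each set, mitochondrial genes above AIMP2 and AIMP1. For 16 of 20 cytosolic genes both red symbols lie left of both blue ones, and the mitochondrial pairs mostly overlap.

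The 7 members called at 0.10 were YARS, AARS, EPRS, LARS, KARS, CARS and FARSA. YARS, the tyrosine enzyme (chromosome 1, 32775237 to 32818153, minus strand, in GENCODE release 29 on GRCh38), had the largest difference, at 38.1 and 33.2 FPKM in the MYC knockdown libraries against 56.6 and 57.6 FPKM in wild type. Its mean differed by −37.7%, a log2 change of −0.67 with a standard error of 0.10 (limma adjusted p = 0.0574). AARS, the alanine enzyme (chromosome 16, 70252295 to 70289543, minus strand), stood at 45.9 and 48.1 FPKM in the MYC knockdown against 70.7 and 68.1 FPKM in wild type. Its log2 change was −0.55 ± 0.08 (standard error; limma adjusted p = 0.0569). In both genes the gap between the groups was wider than the gap within either.

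EPRS, the enzyme for glutamate and proline, stood at 88.4 and 78.2 FPKM in the MYC knockdown against 119 and 123 FPKM in wild type. LARS, the leucine enzyme, stood at 41.3 and 40.9 FPKM against 60.3 and 58.6 FPKM in wild type. KARS, the lysine enzyme of cytosol and mitochondria, stood at 90.1 and 83.8 FPKM against 121 and 126 FPKM in wild type. These 3 genes of the multisynthetase complex had log2 changes of −0.54, −0.52 and −0.50 (limma adjusted p = 0.0648, 0.0572 and 0.0600), and their groups did not overlap.

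FARSA and FARSB encode the α and β subunits of the phenylalanine enzyme, and both were lower. FARSA stood at 39.5 and 34.0 FPKM in the MYC knockdown against 49.96 and 51.2 FPKM in wild type (limma adjusted p = 0.0925), and FARSB at 87.2 and 70.4 FPKM against 103 and 99.6 FPKM (limma adjusted p = 0.159). For both subunits MYC knockdown replicate 2 was the lowest library. CARS, the cysteine enzyme, stood at 33.5 and 34.3 FPKM in the MYC knockdown against 43.2 and 44.2 FPKM in wild type, with a log2 change of −0.36 (limma adjusted p = 0.0883).

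GARS, the glycine enzyme of both compartments, stood at 49.7 and 43.6 FPKM in the MYC knockdown against 61.4 and 61.1 FPKM in wild type. VARS, the valine enzyme, stood at 59.6 and 49.2 FPKM against 72.2 and 73.5 FPKM in wild type. IARS, the isoleucine enzyme, stood at 42.4 and 36.9 FPKM against 51.6 and 52.4 FPKM in wild type. These 3 genes did not overlap between the groups, at log2 changes of −0.39, −0.42 and −0.39, with limma adjusted p of 0.102, 0.117 and 0.107. SARS, MARS, TARS, NARS and DARS (serine, methionine, threonine, asparagine and aspartate) were lower by less, at log2 changes from −0.30 in SARS to −0.18 in DARS, again without overlap. TARS was the most abundant cytosolic synthetase in every library, at 261 and 251 FPKM in the MYC knockdown against 307 and 304 FPKM in wild type.

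The groups overlapped for 4 cytosolic genes: QARS, HARS, RARS and WARS. RARS, the arginine enzyme, stood at 48.5 and 46.3 FPKM in the MYC knockdown against 48.0 and 46.5 FPKM in wild type, and was the cytosolic gene nearest to no difference, with a log2 change of 0.0034 and a standard error of 0.08. QARS, the glutamine enzyme, stood at 155 and 126 FPKM against 149 and 149 FPKM in wild type, above wild type in MYC knockdown replicate 1 and below it in replicate 2. HARS, the histidine enzyme, did the same at 41.6 and 35.2 FPKM against 38.8 and 40.4 FPKM in wild type. WARS, the tryptophan enzyme, stood at 50.2 and 39.5 FPKM in the MYC knockdown against 39.1 and 48.6 FPKM in wild type. Its higher MYC knockdown value was in the library with high interferon-stimulated genes, but wild type replicate 2, where those genes were low, was nearly as high. The part of the interferon-stimulated genes in the WARS level was not tested.

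The medians of complex and free enzymes lay close together. The 8 enzyme genes of the complex had a median log2 change of −0.34 and the 12 cytosolic genes outside it −0.36. Groups did not overlap, lower, for 6 of 8 and 10 of 12, against 25.2% of all genes tested. Of the scaffold proteins AIMP1 and AIMP2, only AIMP2 was lower without overlap. AIMP2 stood at 37.3 and 30.8 FPKM in the MYC knockdown against 38.01 and 38.7 FPKM in wild type, lower in both but by little in replicate 1 (log2 change −0.17, limma adjusted p = 0.405). AIMP1 overlapped, at 30.2 and 34.4 FPKM against 35.8 and 32.5 FPKM in wild type. Class II enzymes, which share one catalytic fold, had a median of −0.34 over 10 genes, and class I enzymes, which share another, −0.36 over 9 genes. EPRS holds a catalytic unit of each class and was counted in neither.

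The cytosolic genes listed as induced by ATF4 were lower in 11 of 12 cases without overlap, WARS being the exception, at a median log2 change of −0.37 and a range from −0.67 to 0.03. The 8 other cytosolic genes had a median of −0.28, and 5 of them were lower without overlap, where 25.2% of all genes tested were. These lists were drawn up with earlier results of these data known, and the difference between them was not tested.

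**Figure D2:**
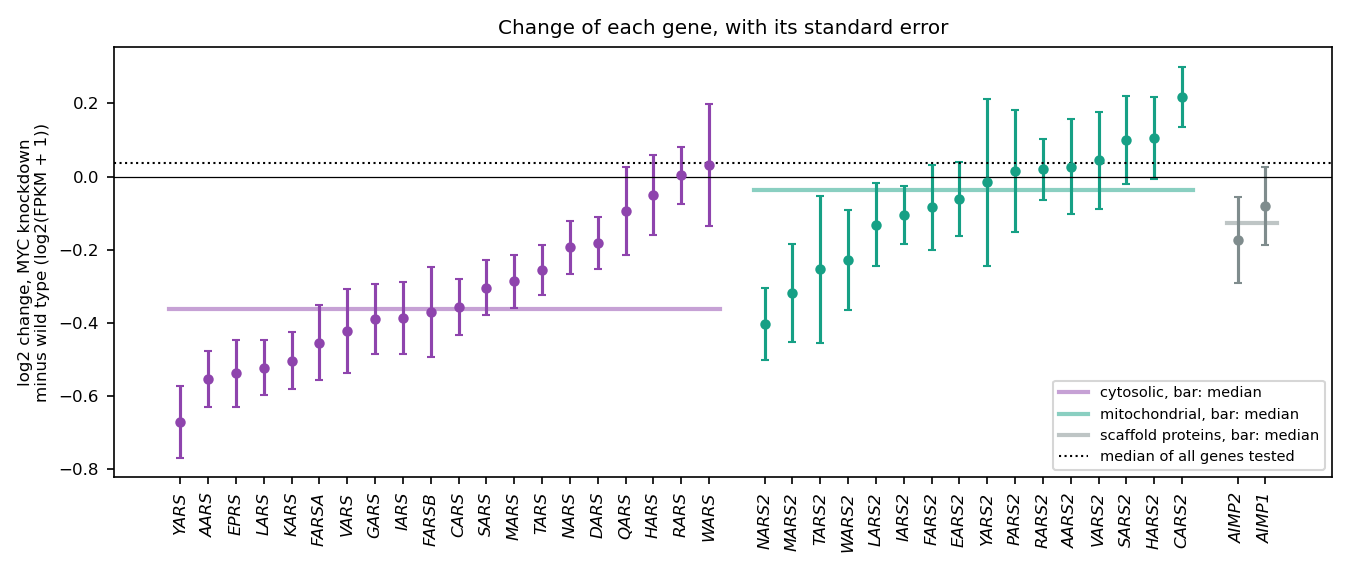
Log2 change of each gene, MYC knockdown minus wild type on log2(FPKM + 1), as points with limma's standard error as bars; thick horizontal bars are the medians of the cytosolic (−0.36), mitochondrial (−0.04) and scaffold genes, and the dotted line is the median of all genes tested (0.04). Cytosolic points run from −0.67 in YARS to 0.03 in WARS, and mitochondrial points lie on both sides of 0, from −0.40 in NARS2 to 0.22 in CARS2.

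Start regions were searched for DNA motifs because so many of the cytosolic genes were lower. RefSeq windows (GRCh38.p14, from 250 bases before to 50 bases from each start) were matched for 32 of the 38 genes. DARS, LARS, VARS, YARS, AARS2 and VARS2 were not analysed here for motifs. The motifs were the C/EBP-ATF element TGATGNAA, which ATF4 is known to bind, and the E-box CACGTG, which MYC is known to bind, each read on both strands. IARS was the only member with both, and its matches do not overlap. The C/EBP-ATF element was present in 7 of 16 cytosolic genes with a window (43.8%) and in 1 of 14 mitochondrial genes (7.14%), where 4.46% of all 27305 genes with a window held it. The matches are shown to let the repeated core be compared, each 5′ to 3′ on the gene's strand with the matched letters in capitals:
AARS (chr16:70289675-70289704, minus strand): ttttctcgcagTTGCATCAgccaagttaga
CARS (chr11:3057407-3057436, minus strand): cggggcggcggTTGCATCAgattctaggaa
GARS (chr7:30594834-30594863, plus strand): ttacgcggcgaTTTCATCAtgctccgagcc
IARS (chr9:92293692-92293721, minus strand): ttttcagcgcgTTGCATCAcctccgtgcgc
MARS (chr12:57488053-57488082, plus strand): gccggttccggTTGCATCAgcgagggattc
NARS (chr18:57621804-57621833, minus strand): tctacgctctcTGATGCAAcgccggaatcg
TARS (chr5:33440956-33440985, plus strand): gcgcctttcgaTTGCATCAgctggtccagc
YARS2 (chr12:32756076-32756105, minus strand): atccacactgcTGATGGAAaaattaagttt

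Counted from the start, the match began between positions −33 and 15 in 6 of the 7 cytosolic genes and at −187 in AARS. All 7 are in the ATF4 list. All 7 were also lower in MYC knockdown cells without overlap, at log2 changes from −0.55 in AARS to −0.19 in NARS. Their median was −0.36, close to the −0.30 of the cytosolic genes with a window and no match. Of the 9 cytosolic genes with a window and no match, 5 were lower and 4 overlapped, from −0.54 in EPRS to 0.03 in WARS. Among all genes tested, 25.2% were lower without overlap. A match is a description of letters and not of binding, and its part in the levels was not tested. The bases before the AARS start (chr16:70289507-70289756, minus strand) place its match in context:
AARS upstream: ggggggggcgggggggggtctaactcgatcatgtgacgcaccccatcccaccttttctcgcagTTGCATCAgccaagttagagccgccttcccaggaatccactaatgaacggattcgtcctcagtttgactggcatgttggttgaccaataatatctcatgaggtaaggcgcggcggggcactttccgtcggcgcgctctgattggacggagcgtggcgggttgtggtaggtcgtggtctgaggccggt

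The E-box was present in 1 of 16 cytosolic genes with a window (6.25%), in 3 of 14 mitochondrial genes (21.4%) and in AIMP2, where 8.77% of all genes with a window held it. They are shown because the E-box is the known site of the factor knocked down, again with the matched letters in capitals:
IARS (chr9:92293867-92293894, minus strand): ggttcgttttcCACGTGgaggcgcaaaa
CARS2 (chr13:110706502-110706529, minus strand): gctgggatgcaCACGTGcttcgctaaca
EARS2 (chr16:23557349-23557376, minus strand): agggagaagccCACGTGtgctattccat
MARS2 (chr2:197705347-197705374, plus strand): tgcgcctctcaCACGTGctgtcagaacg
AIMP2 (chr7:6009479-6009506, plus strand): cgggcgctggcCACGTGcaggtaggagc

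These 5 genes differed in size and sign. IARS and MARS2 had log2 changes of −0.39 and −0.32, AIMP2 and EARS2 of −0.17 and −0.06, and CARS2 of 0.22. A window without a match says only that these letters are not in it.

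Among mitochondrial synthetases, NARS2, the asparagine enzyme (chromosome 11, 78435961 to 78574874, minus strand, GENCODE release 29 on GRCh38), was the lowest relative to wild type. It stood at 11.7 and 10.9 FPKM in the MYC knockdown against 15.01 and 15.5 FPKM in wild type, a difference of −25.9% (log2 change −0.40 ± 0.10, standard error; limma adjusted p = 0.102). MARS2, the methionine enzyme, stood at 3.51 and 3.09 FPKM against 4.42 and 4.29 FPKM in wild type (limma adjusted p = 0.223). WARS2, the tryptophan enzyme, stood at 4.73 and 5.71 FPKM against 6.45 and 6.08 FPKM in wild type (limma adjusted p = 0.353). The groups did not overlap for these 3 genes, but MARS2 and WARS2 were low in all libraries.

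LARS2, the leucine enzyme, stood at 5.74 and 6.27 FPKM in the MYC knockdown against 6.71 and 6.62 FPKM in wild type. IARS2, the isoleucine enzyme, was the most abundant mitochondrial synthetase, at 153 and 140 FPKM against 156 and 158 FPKM in wild type. EARS2, the glutamate enzyme, stood at 9.66 and 10.4 FPKM against 10.5 and 10.5 FPKM in wild type. These 3 genes completed the 6 lower without overlap, at log2 changes of −0.13, −0.10 and −0.06. Among all genes tested, 25.2% were lower without overlap in the fit reported. With equal column sums, where the median of all genes tested was 0.12, 2 mitochondrial genes were lower without overlap instead of 6. The share of all genes in that setting was not computed.

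CARS2, the mitochondrial cysteine enzyme (chromosome 13, 110641412 to 110713603, minus strand), was the only member with both MYC knockdown values above both wild-type values. It stood at 46.1 and 43.8 FPKM in the MYC knockdown against 37.4 and 39.7 FPKM in wild type, 16.7% higher. Its log2 change of 0.22 with a standard error of 0.08 had a limma adjusted p of 0.196. At equal column sums it was among the 8 members under 0.10, where 2230 genes were. The 2 MYC knockdown libraries disagreed for TARS2, the threonine enzyme, at 16.3 and 11 FPKM against 15.5 and 16.9 FPKM in wild type, and for YARS2, the tyrosine enzyme, at 17.1 and 11.1 FPKM against 15.3 and 12.7 FPKM. The other mitochondrial genes, FARS2, PARS2, RARS2, AARS2, VARS2, SARS2 and HARS2, overlapped at log2 changes from −0.08 to 0.10.

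HARS and HARS2 start back to back on chromosome 5. The stretch between their RefSeq starts, shown because it precedes a cytosolic and a mitochondrial gene at once, is 84 bases long (GRCh38.p14, chr5:140691371-140691454, plus strand, reading from HARS to HARS2):
HARS to HARS2: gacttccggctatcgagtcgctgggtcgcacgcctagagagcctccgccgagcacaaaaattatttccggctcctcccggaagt

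HARS2, the mitochondrial histidine enzyme, stood at 18.6 and 15.9 FPKM in the MYC knockdown against 16.2 and 15.6 FPKM in wild type, so both genes were highest in MYC knockdown replicate 1. Their log2 changes were −0.05 for HARS and 0.10 for HARS2 (limma adjusted p = 0.809 and 0.598). In the GENCODE annotation the 2 genes overlap on opposite strands, and reads could be split between them, since the sources used here do not say whether the libraries kept strand.

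Summed over its genes, the cytosolic set took 1469 and 1347 FPKM in the MYC knockdown libraries against 1742 and 1753 FPKM in wild type. The mitochondrial set took 366 and 334 FPKM against 362 and 360 FPKM in wild type. The ratio of the sums, cytosolic over mitochondrial, was 4.01 and 4.03 in the MYC knockdown libraries against 4.81 and 4.86 in wild type. On the log2(FPKM + 1) scale the mean of the cytosolic genes exceeded that of the mitochondrial genes by 2.20 and 2.19 in the MYC knockdown, against 2.42 and 2.48 in wild type. Both measures separated the groups, and a factor common to a whole library does not move the ratio of sums. Gene by gene the MYC knockdown libraries differed by a median of 0.14 in the cytosolic and 0.13 in the mitochondrial set on the log2 scale, yet their ratios of sums lay close together.

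By amino acid, 16 cytosolic and mitochondrial pairs could be formed. EPRS entered both the proline pair, over PARS2, and the glutamate pair, over EARS2, and both are among the lower pairs counted next. The FPKM ratio of cytosolic over mitochondrial gene was lower in both MYC knockdown libraries than in both wild-type libraries for 11 pairs, higher for 2, and overlapping for 3. The same shares over other pairs of genes were not computed, so these counts have no background beside them. The median change of the log2 ratio was −0.38. For alanine, AARS over AARS2 was 8.90 and 8.43 in the MYC knockdown against 12.5 and 13.7 in wild type. For cysteine, CARS over CARS2 was 0.728 and 0.783 against 1.16 and 1.11, so that the cytosolic gene was the lower of the pair in the MYC knockdown and the higher in wild type. For isoleucine the mitochondrial gene was the higher in all libraries, with a ratio of 0.278 and 0.264 in the MYC knockdown against 0.331 and 0.331 in wild type.

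The 2 pairs that ran the other way were methionine and asparagine, where the mitochondrial gene was lower by more than its cytosolic partner. NARS over NARS2 was 6.64 and 6.93 in the MYC knockdown against 5.86 and 5.65 in wild type, and MARS over MARS2 was 21.0 and 23.1 against 20.02 and 20.7. Arginine, threonine and tryptophan overlapped. A ratio shows only that the partners differed unequally.

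**Figure D3:**
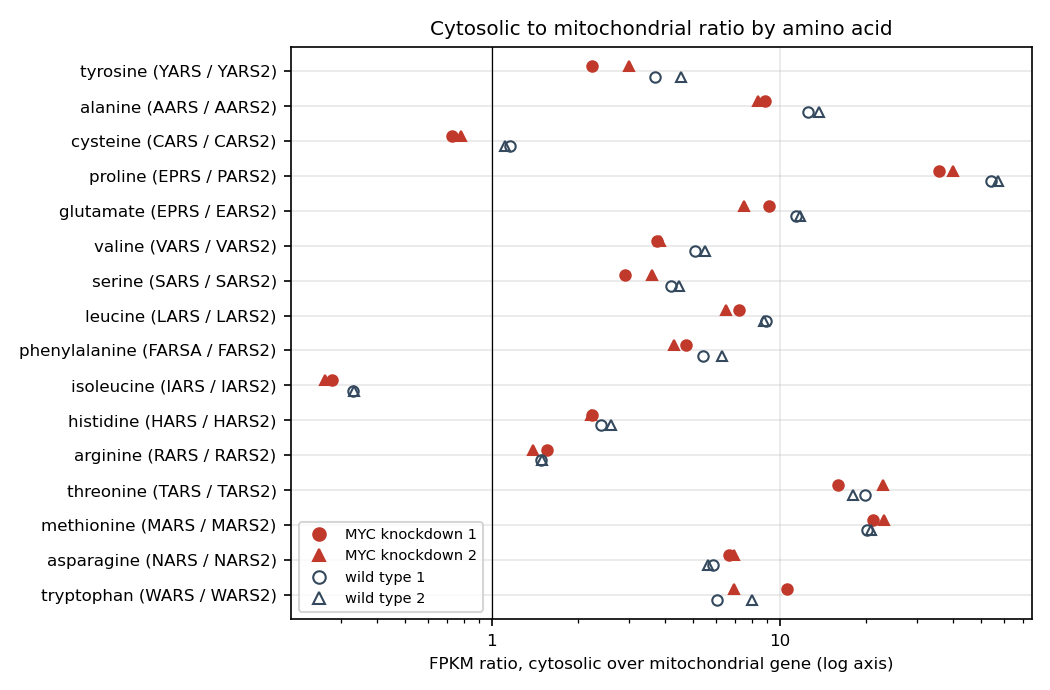
FPKM ratio of the cytosolic over the mitochondrial gene for each amino acid (log axis), with filled red symbols for MYC knockdown and open blue symbols for wild type, circles for replicate 1 and triangles for replicate 2; the vertical line marks equal levels. Red symbols lie left of blue ones for 11 of 16 pairs, from tyrosine at the top to histidine, and right of them for methionine and asparagine. Shares over other pairs of genes were not computed.

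Other genes of tRNA charging were mixed. EEF1E1, the remaining scaffold protein of the multisynthetase complex, stood at 73.9 and 82.4 FPKM in the MYC knockdown against 116 and 110 FPKM in wild type. Its log2 change of −0.53 was the lowest of the list (limma adjusted p = 0.0650). MTFMT, which formylates the mitochondrial initiator tRNA, stood at 10.6 and 10.2 FPKM against 9.50 and 7.38 FPKM in wild type (log2 change 0.28, limma adjusted p = 0.297). The 3 subunit genes of the amidotransferase that makes mitochondrial glutamine tRNA, QRSL1, GATC and PET112 (now GATB), had log2 changes of 0.02, 0.08 and 0.10. Over the 12 genes of this list the median was 0.01, with 3 lower and 2 higher without overlap, against 25.2% and 33.4% of all genes tested.

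Genes of tRNA maturation and export were mixed too. Over 31 rows the median log2 change was −0.10, with 14 lower and 6 higher without overlap, where 25.2% and 33.4% of all genes tested were. PUS1, a pseudouridine synthase of tRNA, stood at 19.7 and 15.5 FPKM in the MYC knockdown against 25.5 and 27.5 FPKM in wild type, and ADAT2, a subunit of the tRNA adenosine deaminase, at 4.68 and 4.32 FPKM against 7.31 and 7.01 FPKM. Their limma adjusted p were 0.102 and 0.0831. XPOT, the exporter of tRNA from the nucleus, stood at 29.5 and 31.4 FPKM against 41.7 and 45.8 FPKM in wild type (limma adjusted p = 0.0701).

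Genes listed as elongation factors, most of which help bring charged tRNA to the ribosome or move it along, were mostly lower, the 5 cytosolic ones all without overlap. EEF1B2, an exchange factor, stood at 325 and 396 FPKM in the MYC knockdown against 573 and 601 FPKM in wild type, and EEF2, the translocase, at 344 and 335 FPKM against 490 and 487 FPKM. Their log2 changes were −0.71 and −0.52 (limma adjusted p = 0.0629 and 0.0566). Of the 4 mitochondrial factors, TUFM and GFM2 had log2 changes of −0.35 and −0.25 without overlap, and TSFM and GFM1 of −0.02 and 0.0065 with overlap. Over the 9 factors the median was −0.31, with 7 lower and 0 higher without overlap, where 25.2% and 33.4% of all genes tested were.

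**Figure D4:**
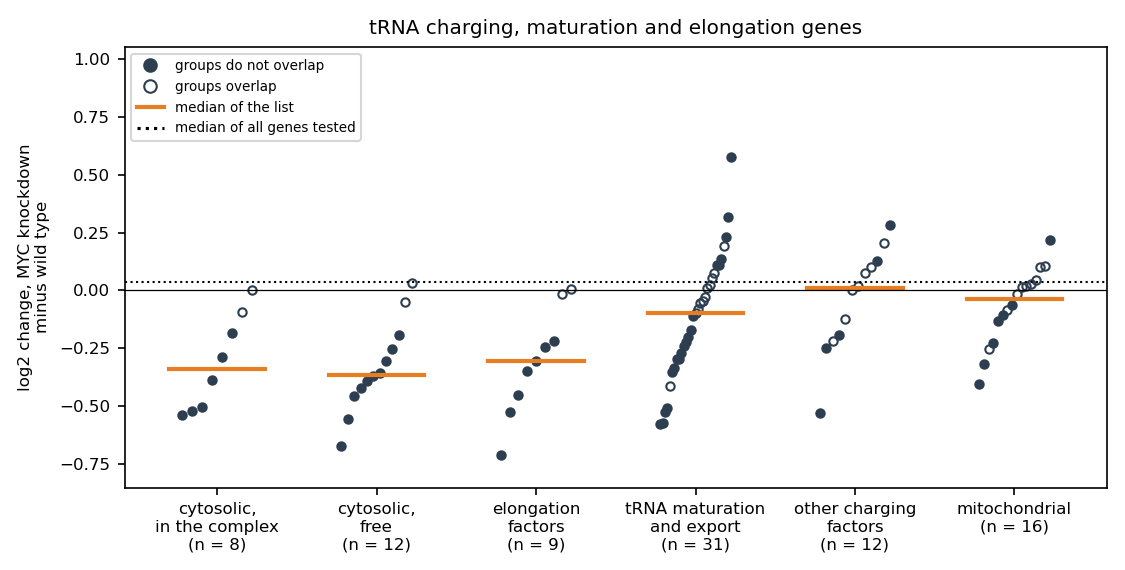
Log2 change, MYC knockdown minus wild type on log2(FPKM + 1), of each gene in 6 lists, filled where the groups do not overlap and open where they do; orange bars are list medians and the dotted line is the median of all genes tested (0.04). The medians are −0.34, −0.36 and −0.31 for the complex, free and elongation lists and −0.10, 0.01 and −0.04 for maturation, other charging and mitochondrial genes.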

How the data were processed

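RNA was measured in 4 libraries, 2 of MYC knockdown and 2 of wild-type NUGC3 cells, grouped by their titles. The authors deposited FPKM per gene. No header names the unit: it rests on column sums that differ, and TPM with rows left out would look alike. STAR and RSEM are named per the submitters' processing notes, while the sources used here give no role, version or build. Depth is unknown, so no counting interval is given.

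Of 344810 rows, the 53777 Ensembl rows were used. A filter of 1 FPKM or more in 2 or more libraries left 12953 genes. Their log2(FPKM + 1) values were fitted with limma 3.58.1 in R 4.3.3 (eBayes, trended), and p-values were adjusted by Benjamini-Hochberg and called at 0.05. This scale understates the change of low genes. The fit was tested on simulated data. Non-overlap means that the lowest value of one group exceeded the highest of the other. The genes, lists, second threshold of 0.10 and tests were chosen with earlier results of these data known.

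Named with 4 values were the 10 cytosolic and 6 mitochondrial genes of largest absolute change, GARS, KARS, WARS, HARS, HARS2, AIMP1 and AIMP2, and from each other list the 2 of largest change at a mean of at least 5 FPKM; other genes were named after their values were seen. For interferon-stimulated genes that rule names IFI27, at 45.3 and 1.41 FPKM in the MYC knockdown against 0.490 and 0.0400 FPKM in wild type, and IFI6, at 375 and 11.6 FPKM against 11.1 and 10.2 FPKM. Positions are from GENCODE release 29 and promoter windows from RefSeq, matched by Ensembl ID and current symbol. Python 3.11.15 and matplotlib 3.10.9 drew the figures. Alternatives were 3 scalings, 2 filters, a pseudocount of 0.1, protein-coding rows alone, a replicate block, each library left out, and cytosolic medians without GARS and KARS or without WARS.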

Additional observations from a re-analysis of the deposited data

How the results depend on the processing

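With 2 libraries a group, the spread rests on 2 residual degrees of freedom. Leaving out 1 library in turn, limma called 0 to 3413 genes and 0 to 19 members at 0.05, and 0 to 22 members at 0.10. Without MYC knockdown replicate 1 or 2 the genes called at 0.05 were 3384 and 3413, and without either wild-type library 0. At 0.10 too, far more of all genes tested were called without MYC knockdown replicate 1 or 2 than in the fit reported. The higher member counts in those settings therefore cannot be read as particular to the synthetases. The median SD per gene was 0.14 in the MYC knockdown and 0.05 in wild type on the log2 scale. A lone library is assumed to vary like the other group. At 0.05, limma called 310, 308 and 385 genes, of them 3, 4 and 4 members, with a mean of at least 5 FPKM, with median of ratios scaling and with protein-coding rows only, against 0 in the fit reported. At 0.10 these settings called 12, 15 and 12 members among 1492, 1652 and 1651 genes, against 7 among 1349. No filter on low values called 0 genes. With equal column sums the cytosolic median was −0.27, the mitochondrial median 0.0502, and 2 mitochondrial genes were lower without overlap. The median of all genes tested was 0.1234 in that setting, against 0.0381 in the fit reported. The share of all genes lower without overlap was not computed for that setting. The cause of these shifts was not tested.

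With each library left out, the cytosolic median ran from −0.41 to −0.29 and stayed below 0, the mitochondrial median from −0.0997 to 0.0125, and their difference from −0.37 to −0.26. Cytosolic genes lower without overlap numbered 16 to 19 and mitochondrial genes 6 to 11. Leaving out a library can only keep or raise these counts, so they could not fall below 16 and 6. The medians without GARS and KARS or without WARS moved by less than the spread between MYC knockdown libraries.

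The values gave no sign that the replicate numbers pair the samples: deviations of same-numbered libraries correlated at −0.006 across genes. A correlation near 0 cannot show that the samples were unpaired. With the replicate block limma called 0 genes at 0.05, and 5 members and 723 genes at 0.10, against 7 and 1349 without it.

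The sign of 4 named genes turned under some settings: AIMP1, HARS and WARS, which lay near 0, and TARS2, at −0.25 in the fit reported. With equal column sums AIMP1 was at 0.0128 and HARS at 0.0434, and with median of ratios scaling WARS was at −0.0165. With each library left out, AIMP1 ran from −0.1698 to 0.0094, HARS from −0.1669 to 0.0671, TARS2 from −0.5184 to 0.0118 and WARS from −0.1368 to 0.1988. AIMP1 turned without MYC knockdown replicate 1, HARS and TARS2 without MYC knockdown replicate 2, and WARS without MYC knockdown replicate 1 or wild type replicate 1.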

Other observations

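Several synthetase genes start next to a gene on the other strand, and the neighbours did not always share their difference. A protein-coding gene starts within 1000 bases on the other strand of 4 of 20 cytosolic genes and 6 of 16 mitochondrial genes in GENCODE release 29. AARS and DDX19B, an RNA helicase gene, start 120 bases apart. AARS had a log2 change of −0.55, while DDX19B stood at 17.4 and 15.4 FPKM in the MYC knockdown against 17.6 and 14.96 FPKM in wild type, a log2 change of 0.01. KARS and TERF2IP, a telomere protein gene, start 857 bases apart, with log2 changes of −0.50 and 0.12. SARS2 and MRPS12, a mitochondrial ribosomal protein gene, start 348 bases apart and lay on different sides of 0, at 0.10 and −0.29. RARS2 and ORC3, an origin recognition gene, start 64 bases apart and both lay near 0, at 0.02 and 0.02.

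A gene with a mean of at least 5 FPKM overlaps HARS, KARS, MARS and YARS, 5 of the mitochondrial genes (CARS2, EARS2, HARS2, SARS2 and YARS2) and AIMP2 on the other strand. Without knowledge of strand their values can hold reads of the partner. On its own strand VARS2 overlaps GTF2H4, at 19.5 and 19.8 FPKM in the MYC knockdown against 21.9 and 25.3 FPKM in wild type. HARS2 overlaps ZMAT2 on its own strand, at 34.7 and 32.1 FPKM against 29.4 and 27.1 FPKM in wild type. For these 2 genes knowledge of strand would not separate the reads.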
